A study of Mus musculus with 21 samples.

Results

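The mucus genes described here are Muc2, Fcgbp, Tff3, Clca1, Zg16 and Agr2, 6 of the 55414 genes in the counts table. They were chosen by name as goblet cell genes, with earlier results of these data known. Fcgbp was chosen with its rise after antibiotics and its fall on zinc water in SPF mice already known. For this reason no member was tested in those 2 comparisons. Fcgbp was tested only in comparisons without the groups behind that choice, although the fit held all libraries. The other members were also tested in comparisons that share those groups, so their calls are not independent of the choice. The data were 21 bulk RNA-seq libraries of Paneth cells, which were FACS-sorted from the small intestine of individual mice. The study describes its Paneth cell mice as C57BL/6J. For 7 weeks the drinking water was either Milli-Q, which is purified water, or ZnSO4 in water, given as 200 mM in the labels. They were specific pathogen free (SPF), SPF with a broad-spectrum antibiotic treatment over the final 3 weeks, or germ-free. SPF mice gave 3 libraries on each water, antibiotics-treated mice 4 on each water, and germ-free mice 3 on Milli-Q water and 4 on zinc water.

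The mucus that covers the intestinal epithelium is built and secreted mainly by goblet cells, whereas Paneth cells, which sit at the base of the small intestinal crypts, secrete antimicrobial peptides and enzymes. Both are secretory cells with a large endoplasmic reticulum, and they arise from shared progenitors. Muc2 is the gel-forming mucin of the intestine. Fcgbp, the Fc fragment of IgG binding protein, and Clca1, a metalloprotease that acts on the mucin, are major proteins of the secreted gel. Zg16 is a lectin that binds Gram-positive bacteria, and Tff3 is a trefoil peptide of mucosal repair. Agr2 is a disulfide isomerase of the endoplasmic reticulum that is needed for the folding of Muc2.

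In GRCm39, with the GENCODE M39 annotation, 3 of the genes lay on chromosome 7. These were Fcgbp at 27770661 to 27820287 on the plus strand, Zg16 at 126649302 to 126686500 on the minus strand and Muc2 at 141276583 to 141308430 on the plus strand. Tff3 lay on chromosome 17 at 31344280 to 31348620 on the minus strand, and Clca1 on chromosome 3 at 144709578 to 144738537 on the minus strand. Agr2 lay on chromosome 12 at 36042904 to 36054086 on the plus strand. All 6 were annotated as protein-coding, and no exon of any of them overlapped an exon of another gene. Every 60-base stretch of 5 of the transcripts was found in no other gene. The exception was Fcgbp, in which 510 of 7869 stretches also occurred in its paralog Fcgbpl1, a gene that had 16 counts over all libraries.

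Fcgbp and Muc2 are large proteins of the gel whose ratio is followed below, so the 250 bases before their RefSeq start sites are shown. Each window from the RefSeq promoter table (GRCm38.p6) matched GRCm39 once, and coordinates are of GRCm39, on the plus strand. Capitals mark matches to 3 motifs, each searched on both strands. The TATA box was spelled TATAAA. The GATA site was spelled AGATAA, and the E-box CAGCTG.
Fcgbp, chr7:27770411-27770660: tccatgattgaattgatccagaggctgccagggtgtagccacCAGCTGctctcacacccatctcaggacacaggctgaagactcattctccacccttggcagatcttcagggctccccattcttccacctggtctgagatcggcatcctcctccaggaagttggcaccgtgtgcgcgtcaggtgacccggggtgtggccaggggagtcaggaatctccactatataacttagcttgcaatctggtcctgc
Muc2, chr7:141276333-141276582: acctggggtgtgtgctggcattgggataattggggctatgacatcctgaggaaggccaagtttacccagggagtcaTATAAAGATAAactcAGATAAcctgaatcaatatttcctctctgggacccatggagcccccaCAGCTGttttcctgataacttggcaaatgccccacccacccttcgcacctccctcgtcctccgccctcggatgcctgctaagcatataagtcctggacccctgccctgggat
The Fcgbp window held 1 E-box match, 208 bases before the start. The Muc2 window held a TATAAA that overlapped the first of its AGATAA matches by 1 base, another AGATAA, and 1 E-box match. Of 32536 windows of this length in the table, 12.3% held TATAAA, 9.97% AGATAA and 13.1% CAGCTG. Neither window held the forkhead letters TGTTTAC, found in 3.17% of windows, nor the metal response element cores TGCACNC (10.5%) or TGCGCNC (12.6%). The Agr2 window held no match to any of these. Tff3, Clca1 and Zg16 had no entry in the table.

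Total counts per library ranged from 9888174 to 16896714. Levels are given as CPM, counts relative to the library size, after scaling by TMM factors, which put most genes at about the same level in all libraries. The factors ran from 0.522 to 1.49 and were lowest in germ-free libraries (0.522 to 0.834). The 8 Paneth cell markers took 29.4% to 41.2% of counts as group means, with the 4 defining products Lyz1, Itln1, Ang4 and Defa24 abundant in every library. In the SPF zinc group, replicate 1 held Xist at 508 CPM, against at most 2.53 CPM in the other 20 libraries. The sex of the mice is not given in the labels. In the SPF Milli-Q group, replicate 2 stood apart in several goblet cell genes, as described below, and results that rest on it are given with and without it.

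All 6 mucus genes were well counted in the sorted Paneth cells. Together they took 0.577% ± 0.327 (SD, n = 3) of counts in SPF mice on Milli-Q water and 0.306% ± 0.0443 (SD, n = 3) on zinc water. The share was 0.708% ± 0.114 (SD, n = 4) after antibiotics on Milli-Q water and 0.673% ± 0.135 (SD, n = 4) on zinc water. In germ-free mice it was 0.362% ± 0.0463 (SD, n = 3) and 0.297% ± 0.052 (SD, n = 4) on the same waters. The shares of the antibiotics groups, 0.553% to 0.856%, lay above every SPF and germ-free library except SPF Milli-Q replicate 2, at 0.954%. Over the TMM-scaled library size this order was lost, with means of 0.531% and 0.568% in the antibiotics groups, 0.560% and 0.421% in the germ-free groups and 0.448% and 0.281% in the SPF groups, on Milli-Q and zinc water. In bulk samples, fewer cells of a type and less RNA per cell cannot be told apart.

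Per length of transcript, as TPM over protein-coding genes, Tff3 ranked 18 and Agr2 21 among all genes, with mean TPM of 2554 and 1643. Zg16 ranked 94 (237.5 TPM), Muc2 196 (102.1 TPM) and Fcgbp 259 (74.9 TPM). Clca1 was the lowest member, at rank 2050 and 11.98 TPM. The folding factor and the trefoil peptide were thus far more abundant as transcripts than the structural proteins of the gel. In CPM, Clca1 varied most between libraries, from 5.352 to 133.8, which is 25-fold. Zg16 varied 22.8-fold, Fcgbp 10.6-fold, Muc2 5.12-fold, Agr2 4.36-fold and Tff3 3.54-fold.

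**Figure D1:**
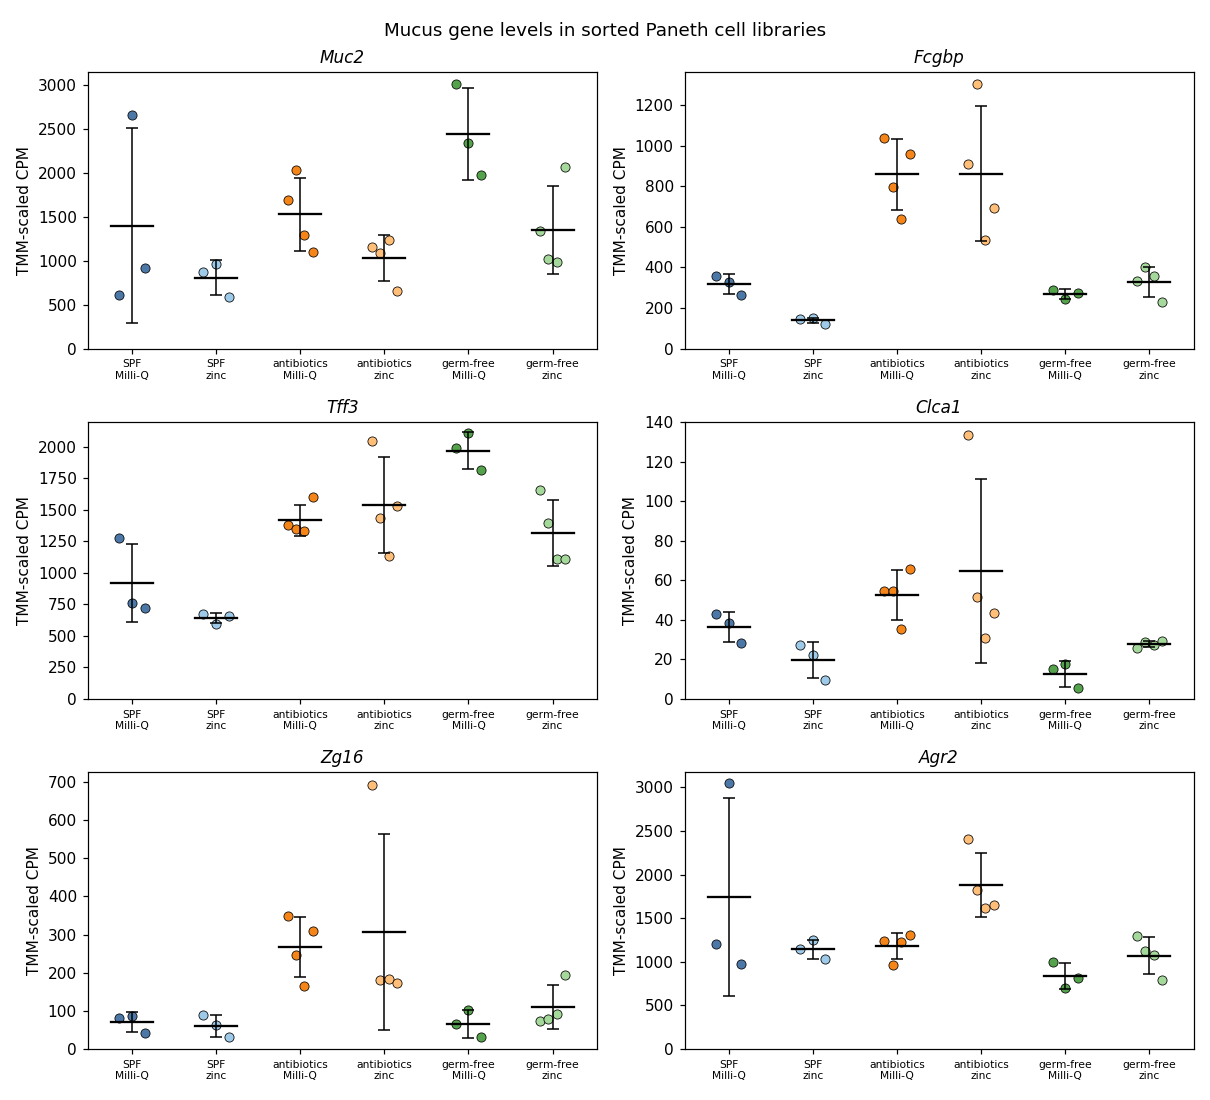
TMM-scaled CPM of the 6 mucus genes in each of the 21 libraries, by group, on linear axes. Points are libraries, lines are group means and bars are the SD. Fcgbp sits between 537.7 and 1304 CPM in the 8 antibiotics libraries and at or below 400.1 CPM in all the others.

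Fcgbp was high in every antibiotics library. In SPF mice on Milli-Q water its 3 libraries held 359.4, 329.8 and 266.9 CPM, and on zinc water 144.6, 149 and 123.2 CPM. After antibiotics the 4 Milli-Q libraries held 1036, 797.9, 639.9 and 958.3 CPM, and the 4 zinc libraries 911.5, 1304, 537.7 and 692.4 CPM. Germ-free libraries held 289.1, 243.5 and 273.6 CPM on Milli-Q water, and 332, 400.1, 356.8 and 229.1 CPM on zinc water. In these TMM-scaled CPM every antibiotics library was above every other library, and every SPF zinc library was below every other library. Fcgbp was chosen with part of this pattern known, and the share of all genes that separate in this way was not counted. By library totals the antibiotics libraries were again above all others, at 627.1 CPM or more, but the SPF zinc libraries, at 144, 174 and 136 CPM, overlapped with germ-free Milli-Q replicate 2 (153 CPM) and germ-free zinc replicate 1 (173.4 CPM). As group means, the order from the lowest was SPF zinc (138.9 ± 13.81 CPM, n = 3), germ-free Milli-Q (268.7 ± 23.15, n = 3), SPF Milli-Q (318.7 ± 47.2, n = 3) and germ-free zinc (329.5 ± 72.61, n = 4). The antibiotics groups followed at 858 ± 175.9 CPM (SD, n = 4) on Milli-Q water and 861.4 ± 332.5 CPM (SD, n = 4) on zinc water. The libraries of SPF Milli-Q mice overlapped with those of both germ-free groups, and the antibiotics groups overlapped with each other.

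These levels gave a log2 fold change of Fcgbp of 1.43 ± 0.24 (SE) after antibiotics against SPF on Milli-Q water, or 2.69-fold. On zinc water in SPF mice it was -1.20 ± 0.25 (SE), or 2.30-fold lower. Both are descriptions without a test, because they chose the gene. Leaving out each library in turn, the values ran from 1.32 to 1.54 and from -1.30 to -1.10. Without the Xist-high library of the zinc group the second was -1.23. Zinc water did not have this size of difference in the other contexts. It gave 0.01 ± 0.21 after antibiotics, also untested, and 0.29 ± 0.23 in germ-free mice, where edgeR's quasi-likelihood test gave an adjusted p of 0.413. Germ-free mice on zinc water had lower Fcgbp than antibiotics-treated mice on the same water, by a log2 fold change of -1.39 ± 0.21 (edgeR adjusted p = 0.000231). This call held when any of the 8 libraries was left out, with edgeR adjusted p from 0.000214 to 0.00106. It was not independent of the choice of the gene, since its rise after antibiotics was known and the fit held the libraries behind it. The other comparisons of Fcgbp include groups of that choice and stand as values only. These were 2.63 ± 0.25 for antibiotics against SPF on zinc water, -0.25 ± 0.24 and 1.25 ± 0.24 for germ-free against SPF on Milli-Q and zinc water, and -1.68 ± 0.24 for germ-free against antibiotics on Milli-Q water. By library totals the 3 values with germ-free mice were -1.20, 0.61 and -2.73, in the same order, and that for antibiotics against SPF on zinc water was 2.78.

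The other members in the comparisons that chose Fcgbp are likewise given without a test. On zinc water in SPF mice all 6 fitted changes were negative, from -1.20 to -0.20, with a median of -0.70, and over all 13070 genes tested the median was -0.02 and 0.138% were called by edgeR. In Fcgbp, Tff3 (-0.51 ± 0.21) and Clca1 (-0.89 ± 0.42) the zinc libraries lay below all Milli-Q libraries, and 5.62% of all genes showed such a separation downwards. Muc2 (-0.79 ± 0.38) and Agr2 (-0.61 ± 0.28) rested on 1 library. Without SPF Milli-Q replicate 2 they were 0.08 and 0.07. Zg16 was at -0.20 ± 0.51. For antibiotics against SPF on Milli-Q water, 3 members lay wholly above SPF, against 4.47% of all genes, and edgeR called 0.199% of all genes in either direction. These were Fcgbp, Tff3 (0.62 ± 0.20) and Zg16 (1.92 ± 0.50). Clca1 was at 0.53 ± 0.38 with overlapping libraries, Muc2 at 0.13 and Agr2 at -0.56. Without SPF Milli-Q replicate 2, Muc2 was at 1.00 and Agr2 at 0.11. The SPF Milli-Q libraries served as controls in both of these comparisons.

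**Figure D2:**
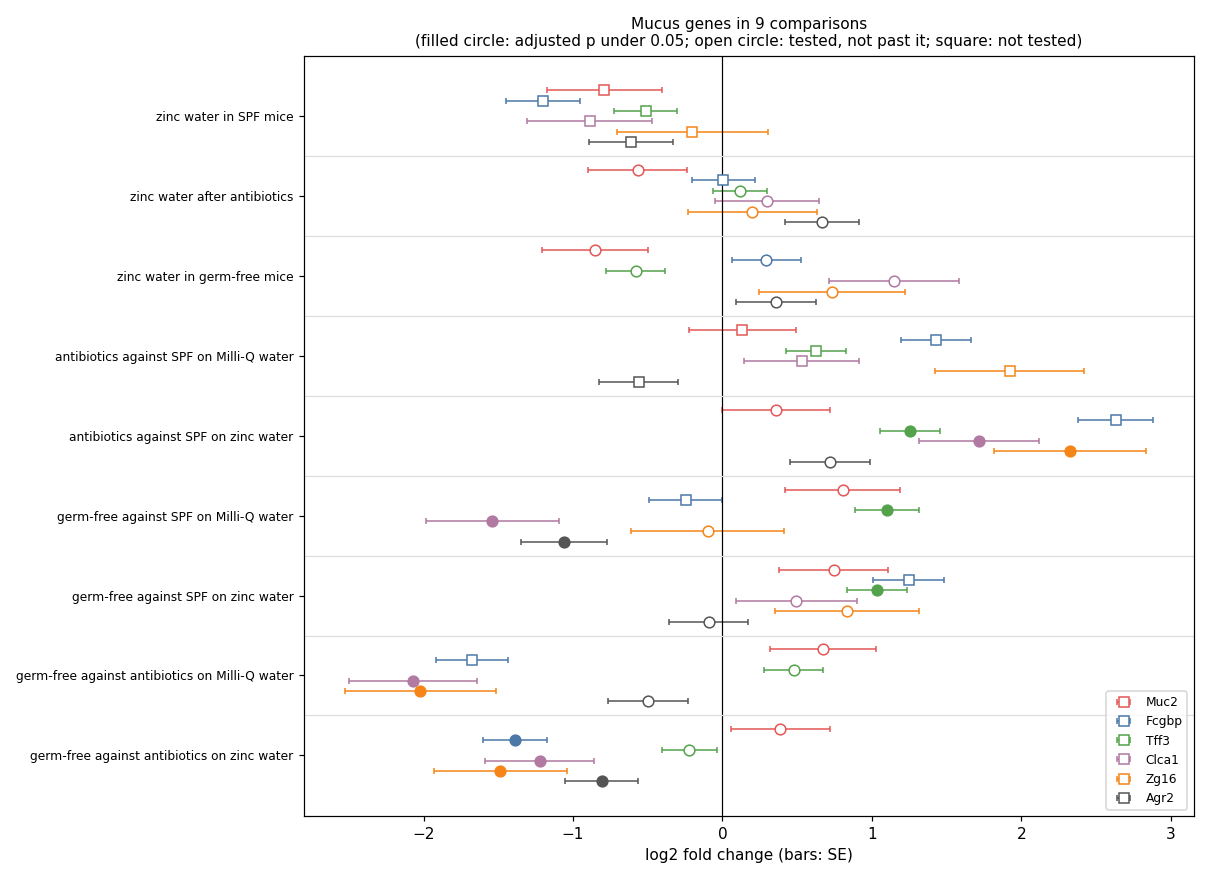
Log2 fold changes of the 6 mucus genes in the 9 comparisons of groups, with standard errors, from the edgeR fit of all libraries. Fcgbp lies at -1.20 on zinc water in SPF mice and at 1.43 after antibiotics on Milli-Q water, and at 0.01 and 0.29 on zinc water in the other contexts.

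Zg16 and Clca1 varied together across the libraries. Zg16 in SPF mice stood at 82.25, 87.78 and 41.64 CPM on Milli-Q water and at 89.47, 63.31 and 31.39 CPM on zinc water. After antibiotics it was 348.7, 246.1, 165.8 and 309 CPM on Milli-Q water and 692.2, 180, 183.6 and 172.1 CPM on zinc water. In germ-free mice it was 65.4, 102.7 and 30.4 CPM on Milli-Q water and 72.41, 77.8, 91.27 and 195 CPM on zinc water. The antibiotics libraries were above all SPF libraries, and 1 of them, replicate 1 on zinc water, was far above the rest. Germ-free zinc replicate 4 reached into the range of the antibiotics libraries. On zinc water Zg16 was higher after antibiotics than in SPF mice, by 2.32 ± 0.51 (edgeR adjusted p = 0.00853). This lost its call without SPF zinc replicate 3 (edgeR adjusted p = 0.0549), and was 1.54 (edgeR adjusted p = 0.0411) without the library at 692.2 CPM. It was lower in germ-free than in antibiotics-treated mice on Milli-Q water, by -2.02 ± 0.51 (edgeR adjusted p = 0.0065), in every fit with a library left out. On zinc water that difference was -1.49 ± 0.44 (edgeR adjusted p = 0.0289). It lost its call in 4 of the 8 fits that left out a library, and was -0.71 (edgeR adjusted p = 0.238) without the library at 692.2 CPM.

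Clca1 in SPF mice stood at 42.96, 38.61 and 28.12 CPM on Milli-Q water and at 27.54, 22.03 and 9.669 CPM on zinc water. After antibiotics it was 54.83, 54.7, 35.49 and 65.86 CPM on Milli-Q water and 133.8, 51.62, 30.64 and 43.26 CPM on zinc water. In germ-free mice it was 15.28, 17.61 and 5.352 CPM on Milli-Q water and 25.94, 28.74, 27.24 and 29.11 CPM on zinc water. The germ-free Milli-Q libraries were below all others except SPF zinc replicate 3, and the library with the highest Zg16 also had the highest Clca1. Clca1 was lower in germ-free mice than in SPF mice on Milli-Q water by -1.54 ± 0.44 (edgeR adjusted p = 0.0148). It was also lower than after antibiotics, by -2.07 ± 0.43 (edgeR adjusted p = 0.00165). The first of these was -1.16 (edgeR adjusted p = 0.0881) without germ-free Milli-Q replicate 3, and the second kept its call whichever library was left out. On zinc water Clca1 was higher after antibiotics than in SPF mice (1.72 ± 0.40, edgeR adjusted p = 0.0127) and lower in germ-free than in antibiotics-treated mice (-1.22 ± 0.36, edgeR adjusted p = 0.0285). Without replicate 1 of the antibiotics zinc group these were 1.09 (edgeR adjusted p = 0.0593) and -0.59 (edgeR adjusted p = 0.215). The second lost its call in 3 further fits that left out a library, of germ-free zinc mice, and the first lost its call without SPF zinc replicate 2 or 3 (edgeR adjusted p of 0.0522 and 0.0787). In germ-free mice the zinc libraries of Clca1 lay above the Milli-Q libraries, by 1.148 ± 0.432, which missed the threshold (edgeR adjusted p = 0.0814).

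The ratio of length-scaled counts of Clca1 to Zg16 changed least of the 15 pairs of members, from 0.0321 to 0.145, or 4.52-fold, over libraries in which each gene varied over 22-fold. Pearson's r of their log-CPM over the 21 libraries was 0.86, and 0.872 once group means were removed. The libraries share normalisation and group structure, so r is a description only. Fcgbp and Zg16 had r = 0.771 over all libraries but 0.118 within groups, and Fcgbp and Clca1 0.719 and 0.398. Thus Fcgbp moved with this pair between groups more than within them. Muc2 had r of 0.0747 with Fcgbp, -0.13 with Clca1 and 0.118 with Zg16. The ratio of length-scaled Muc2 to Clca1 ranged 42.8-fold, the widest of all pairs. Muc2 to Fcgbp ranged from 0.477 in a library of antibiotics-treated mice on zinc water to 5.94 in a germ-free Milli-Q library. Its group medians were 1.97 and 3.42 in SPF, 1.04 and 0.629 after antibiotics and 5.48 and 1.93 in germ-free mice, on Milli-Q and zinc water.

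**Figure D3:**
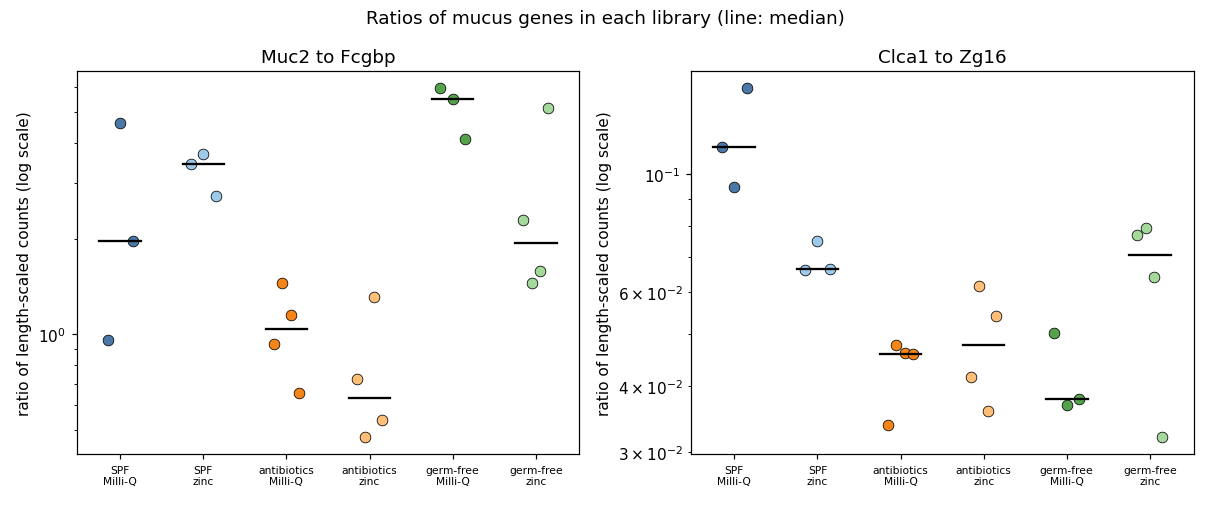
Ratios of length-scaled counts of Muc2 to Fcgbp and of Clca1 to Zg16 in each library, on log axes with a line at each group's median. Muc2 to Fcgbp has its highest median, 5.48, in germ-free mice on Milli-Q water and its lowest, 0.629, in antibiotics-treated mice on zinc water.

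Tff3 varied least between libraries. In SPF mice it stood at 1277, 758.5 and 720.6 CPM on Milli-Q water and at 674, 596 and 660.9 CPM on zinc water. After antibiotics it was 1379, 1350, 1333 and 1602 CPM on Milli-Q water and 2048, 1437, 1130 and 1529 CPM on zinc water. Germ-free libraries held 1989, 2111 and 1813 CPM on Milli-Q water and 1654, 1397, 1110 and 1114 CPM on zinc water. The SPF zinc libraries were the lowest 3 of all 21, and no library of antibiotics-treated or germ-free mice on zinc water overlapped with them. On zinc water Tff3 was higher after antibiotics than in SPF mice by 1.26 ± 0.20 (edgeR adjusted p = 0.00145), a call that held without any 1 library. Germ-free mice had more Tff3 than SPF mice on Milli-Q water (1.10 ± 0.21, edgeR adjusted p = 0.000853) and on zinc water (1.03 ± 0.20, edgeR adjusted p = 0.00675). These 2 differences depended on scaling. By library totals alone they were 0.17 (edgeR adjusted p = 0.385) and 0.38 (edgeR adjusted p = 0.0596). The second also missed the threshold without SPF zinc replicate 2 (0.96, edgeR adjusted p = 0.0624). On zinc water in germ-free mice the change of Tff3 was -0.58 ± 0.20 with no overlap, and missed the threshold (edgeR adjusted p = 0.0551).

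Muc2 in germ-free mice on Milli-Q water stood at 3014, 2342 and 1977 CPM, and on zinc water it was 1334, 1021, 988.5 and 2070 CPM. In SPF mice it was 607.3, 2665 and 921.2 CPM on Milli-Q water and 868.8, 967.6 and 588.4 CPM on zinc water. After antibiotics it was 1695, 2035, 1296 and 1104 CPM on Milli-Q water and 1156, 1093, 1241 and 652 CPM on zinc water. The SPF Milli-Q libraries spanned a range that overlapped with every other group, and replicate 2 among them was the second highest of the 21 libraries. The mean of the germ-free Milli-Q group, 2445 CPM, was the highest of the 6 under TMM scaling. By library totals it was 1578 CPM, below antibiotics on Milli-Q water at 2039 CPM and SPF on Milli-Q water at 1843 CPM. Between germ-free and antibiotics on Milli-Q water the change turned from 0.67 (edgeR adjusted p = 0.179) to -0.37 (edgeR adjusted p = 0.372). No tested comparison of Muc2 passed the threshold. The nearest were zinc water in germ-free mice (-0.85 ± 0.35, edgeR adjusted p = 0.113) and germ-free against SPF on Milli-Q water (0.80 ± 0.38, edgeR adjusted p = 0.129). Without SPF Milli-Q replicate 2 the latter was 1.64 (edgeR adjusted p = 0.00195), and by library totals alone, with all libraries, it was -0.23. Without germ-free zinc replicate 4 the former was -1.13 (edgeR adjusted p = 0.0226).

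Agr2 in SPF mice stood at 1204, 3050 and 972.5 CPM on Milli-Q water and at 1142, 1249 and 1032 CPM on zinc water. After antibiotics it was 1235, 961.5, 1223 and 1309 CPM on Milli-Q water and 2411, 1825, 1617 and 1654 CPM on zinc water. In germ-free mice it was 1000, 698.8 and 812.1 CPM on Milli-Q water and 1291, 1128, 1074 and 792.6 CPM on zinc water. All 4 antibiotics zinc libraries were above the 4 antibiotics Milli-Q libraries, by 0.67 ± 0.25, which missed the threshold (edgeR adjusted p = 0.0542). Agr2 was lower in germ-free than in antibiotics-treated mice on zinc water (-0.81 ± 0.25, edgeR adjusted p = 0.0321). It lost that call in 4 of the 8 fits that left out a library, the weakest being -0.67 (edgeR adjusted p = 0.101) without antibiotics zinc replicate 1. The lower level in germ-free than in SPF mice on Milli-Q water (-1.06 ± 0.29, edgeR adjusted p = 0.00984) was -0.41 (edgeR adjusted p = 0.18) without SPF Milli-Q replicate 2, and -0.95 (edgeR adjusted p = 0.061) without germ-free Milli-Q replicate 2.

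Counted by comparison, the members' calls stood as follows beside those of all genes. The members were chosen with earlier results known, so these counts are not independent of that choice. On zinc water, antibiotics against SPF had 3 of 5 members called, all higher (Tff3, Clca1 and Zg16), with 4.76% of all genes called higher and 8.97% in either direction. Germ-free against SPF had 3 of 5 called on Milli-Q water (Tff3 higher, Clca1 and Agr2 lower), against 24.2% of all genes, and 1 of 5 on zinc water (Tff3), against 5.85%. Germ-free against antibiotics had 2 of 5 called on Milli-Q water, both lower (Clca1 and Zg16), where 22.2% of all genes were called in either direction and 9.7% lower. On zinc water it had 4 of 6 called, all lower (Fcgbp, Clca1, Zg16 and Agr2), where 13.2% of all genes were called and 6.09% lower. The call of Fcgbp among them was not independent of its choice, since its rise after antibiotics was known. Only Fcgbp was called when antibiotics zinc replicate 1, or germ-free zinc replicate 2 or 3, was left out. Without the Xist-high SPF zinc replicate 1, the counts against SPF on zinc water were again 3 and 1.

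Zinc water changed no member past the threshold in the 2 contexts tested. After antibiotics 0 of 5 were called by edgeR, where 21.7% of all genes were, and 1 had an unadjusted p below 0.05. DESeq2 called 0 there, and limma-voom with quality weights 1. In germ-free mice 0 of 6 were called by edgeR, against 11.4% of all genes, and 3 had an unadjusted p below 0.05. DESeq2 called 1 there and limma-voom 3. The difference of the zinc effect between germ-free and antibiotics-treated mice was called for 0 of 5 members by edgeR, against 0.207% of all genes, with 1 at an unadjusted p below 0.05. The nearest was Tff3, at -0.70 (edgeR adjusted p = 0.192).

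TMM scaling bears on every comparison with germ-free mice. By library totals alone the median of all genes shifted to -0.99 and -0.61 in germ-free against SPF on Milli-Q and zinc water, and to -1.05 and -0.74 in germ-free against antibiotics. Signs near 0 turned with this shift. Tff3 in germ-free against antibiotics on Milli-Q water turned from 0.48 (edgeR adjusted p = 0.0833) to -0.57 (edgeR adjusted p = 0.00386). Fcgbp, Clca1, Zg16 and Agr2 were lower in germ-free than in antibiotics-treated mice on zinc water under both scalings.

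**Figure D4:**
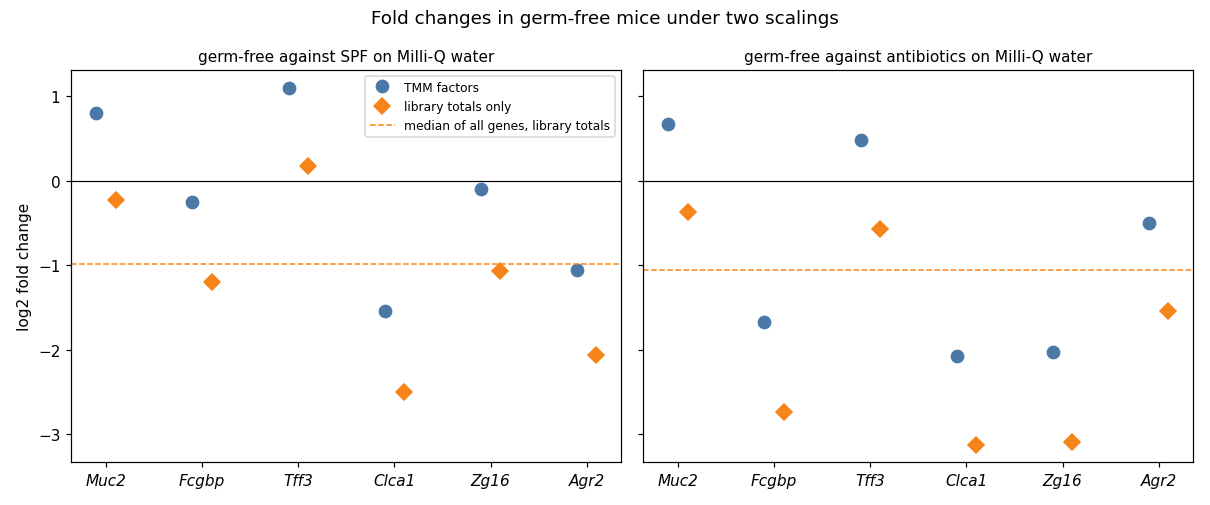
Log2 fold changes of the members in germ-free mice against SPF and against antibiotics-treated mice, all on Milli-Q water. Values are under TMM factors and under library totals alone, from edgeR fits of all libraries. Tff3 in germ-free against antibiotics on Milli-Q water lies at 0.48 under TMM factors and at -0.57 under library totals.

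SPF Milli-Q replicate 2 differed from replicates 1 and 3 in some goblet cell genes and not in others. Its CPM was 3.49 times their mean for Muc2 and 2.8 times for Agr2, but 1.05 times for Fcgbp, 1.09 times for Clca1, 1.42 times for Zg16 and 0.759 times for Tff3. Of the 14 other goblet cell markers, 5 had their highest level of all 21 libraries in it. These were Spdef, a goblet and Paneth cell transcription factor, Retnlb, Klk1, Creb3l1 and Ern2. Retnlb, a goblet cell product that acts against bacteria, stood at 97.7 CPM in it, against 0.409 and 1.21 CPM in replicates 1 and 3. Klk1 was 5.84 times and Creb3l1 3.49 times the mean of the others, while Foxa3 was 0.939 times and Spink4 0.793 times. None of the 8 Paneth cell markers was highest in this library. Whether more goblet cells in the sort or another state of the cells goes with these levels was not tested.

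**Figure D5:**
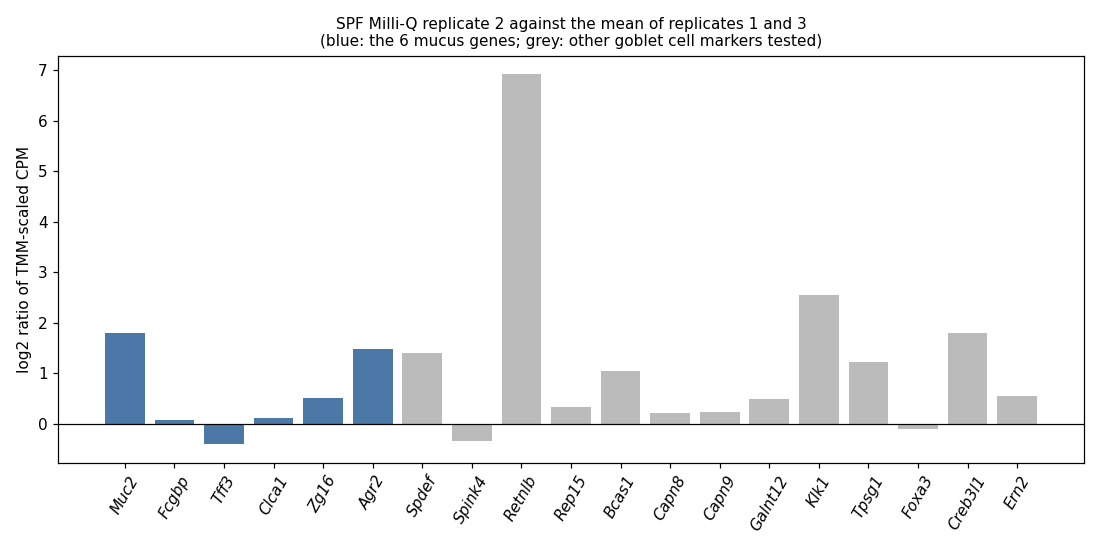
Log2 ratio of SPF Milli-Q replicate 2 to the mean of replicates 1 and 3 in TMM-scaled CPM, for the 6 mucus genes (blue) and 13 other goblet cell markers (grey), with bars from 0. Retnlb has the tallest bar, at a ratio of 121, and Fcgbp and Clca1 lie close to 0.

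Goblet cell markers outside the mucus genes bear on whether the latter came from Paneth cells or from goblet cells carried through the sort. Of the 14, 13 had counts in every library and St6galnac1, a goblet cell sialyltransferase, had 0 counts in all 21. Their summed share of counts had group means from 0.722% to 0.807%. Most of it was Spink4, at 4370 to 13800 CPM with a median of 5960 CPM. Klk1, the next of them, had a median of 169 CPM, so the sum says little about the other markers. In antibiotics against SPF on Milli-Q water, where Fcgbp had 1.43 and Zg16 1.92, the 13 markers tested had a median log2 fold change of 0.01 (0.23 without SPF Milli-Q replicate 2). With 0.199% of all genes called in that comparison, the absence of calls among them shows nothing about the markers. The summed share, mostly Spink4, was 0.781% ± 0.0261 (SD, n = 4) after antibiotics and 0.752% ± 0.0528 (SD, n = 3) in SPF mice. On zinc water in SPF mice, where 0.138% of all genes were called, the markers had a median of -0.47, with 11 of 13 below 0, and without SPF Milli-Q replicate 2 a median of 0.02 with 6 of 13 below 0. Under the same omission the change of Fcgbp, itself untested, was within the range of -1.30 to -1.10 given above. Whether it went with the markers was not tested. On zinc water 2 of 13 markers rose after antibiotics against SPF, where 4.76% of all genes were called higher. These were Tpsg1 (1.20, edgeR adjusted p = 0.0432) and Capn9 (0.85, edgeR adjusted p = 0.0463). No marker was called there when any SPF zinc library, or antibiotics zinc replicate 1 or 2, was left out. The 8 Paneth cell markers had a median of -0.245 in antibiotics against SPF on Milli-Q water, with 8 of 8 below 0. Of these 1 was called, Mptx2 (-1.64, edgeR adjusted p = 0.00728). On zinc water in SPF mice their median was 0.309, with 1 of 8 below 0. Without SPF Milli-Q replicate 2 these medians were -0.365 and 0.194. How they bear on the mucus genes was not tested. The share of each transcript that came from Paneth cells cannot be told apart from that of goblet cells in these bulk libraries.

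Under TMM scaling, the goblet cell markers called in germ-free against antibiotics-treated mice were higher, whereas the mucus genes called there were lower. Against antibiotics on zinc water, 4 of 13 markers were called higher, where 13.2% of all genes were called in either direction. These were Spink4 (0.89, edgeR adjusted p = 0.0012), Rep15 (0.58, edgeR adjusted p = 0.0234), Galnt12 (0.49, edgeR adjusted p = 0.0392) and Foxa3 (0.49, edgeR adjusted p = 0.0392). By library totals none of the 4 was called, at 0.11, -0.20, -0.29 and -0.28. On Milli-Q water, where 22.2% of all genes were called, 4 of 13 were called as well, Spink4, Foxa3, Spdef and Rep15, and by library totals they stood at 0.12, -0.05, -0.33 and -0.50, the last with an edgeR adjusted p of 0.0182. Under TMM scaling the Paneth cell markers were called higher in 8 of 8 on Milli-Q and 7 of 8 on zinc water, beside the same shares of all genes. Lyz1 among them was at 1.32 and 0.96, and by library totals at 0.30 and 0.17, neither called. Against SPF mice on Milli-Q water, where 24.2% of all genes were called, Spink4 (1.175) and Foxa3 (1.11) were called higher and Retnlb (-5.786) lower. Without SPF Milli-Q replicate 2, 7 goblet cell markers were called there, of which 2 were shared, and Retnlb was at -0.516. On zinc water 3 were called higher, where 5.85% of all genes were called, and 0 to 5 when a library was left out.

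Markers of other cells moved with some of these results. Enterocyte markers took 0.0504% ± 0.0179 (SD, n = 3) of counts in SPF mice on Milli-Q water and 0.127% ± 0.034 (SD, n = 3) on zinc water. Sis, the sucrase-isomaltase of the brush border, rose on zinc water in SPF mice (2.23, edgeR adjusted p = 0.0283), after antibiotics (1.42, edgeR adjusted p = 0.0127) and in germ-free mice (2.01, edgeR adjusted p = 0.0161). By library totals these were 1.98, 1.25 and 2.21, with adjusted p of 0.112, 0.0561 and 0.0185. On zinc water 6 of 8 enterocyte markers were lower after antibiotics than in SPF mice, where 8.97% of all genes were called in either direction. This is the comparison in which Tff3, Clca1 and Zg16 were higher. None of the 8 was at 0 in any library. The part of enterocytes in these results was not tested. The summed immune markers were highest after antibiotics on Milli-Q water, at 0.0311% to 0.0392% of counts against 0.00239% to 0.0082% in SPF mice. Most of this was Cd74, at 243 to 283 CPM, while Cd3e, Cd8a and Cd79a had 10 or 11 counts each in all libraries together. On zinc water after antibiotics Cd74 ranged from 2.56 to 189 CPM, and Fcgbp from 537.7 to 1304 CPM. The part of immune cells in these results was not tested. Stromal markers were at or below 0.000381% of counts.

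Markers of enteroendocrine, tuft and cycling cells were low and moved with some groups as well. The 6 enteroendocrine markers took 0.0183% ± 0.00683 (SD, n = 3) of counts in SPF mice on Milli-Q water and 0.0087% ± 0.0019 (SD, n = 3) on zinc water, where Fcgbp was lower too. Their fitted changes were below 0 in 6 of 6 there, with a median of -0.78, and of -0.67 when replicate 2 of the SPF Milli-Q group was left out. They took 0.0042% ± 0.000685 (SD, n = 3) in germ-free mice on Milli-Q water. Against SPF mice on that water 4 of 6 were called lower and 1 higher, and against antibiotics-treated mice 5 lower and 1 higher, where 24.2% and 22.2% of all genes were called. The 6 tuft cell markers took 0.0249% ± 0.0051 (SD, n = 3) of counts in SPF and 0.00794% ± 0.000597 (SD, n = 3) in germ-free mice on Milli-Q water, with 2 of 5 tested called lower. The 5 stem and cycling cell markers took 0.506% ± 0.096 (SD, n = 3) and 0.175% ± 0.0349 (SD, n = 3) in the same groups, with 2 called lower and 1 higher. The markers called higher against SPF mice, Sct and Ascl2, were at -0.07 and -0.20 by library totals. Neurod1 and Il25 were at 0 in 2 libraries each, and every other marker of these 3 lists had counts in all libraries. The part of these cells in the levels of the mucus genes was not tested.

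Close relatives of the mucus genes changed in some comparisons, and no difference between them and the members was tested. Of 10 paralogs, 8 passed the filter on low counts. On zinc water after antibiotics 4 members of the calcium-activated chloride channel regulator family fell, where 21.7% of all genes were called. These were Clca3a1 (-1.23, edgeR adjusted p = 0.00298), Clca3a2 (-0.89, edgeR adjusted p = 0.00263), Clca3b (-0.75, edgeR adjusted p = 0.00263) and Clca4b (-0.58, edgeR adjusted p = 0.0331; adjusted p = 0.0502 by library totals). Clca1 itself was at 0.30 ± 0.35 there (edgeR adjusted p = 0.568). Clca3b was the most highly counted of them, at 509 to 1200 CPM. Against antibiotics on Milli-Q water, Clca3a1 (-1.37, edgeR adjusted p = 0.00243), Clca3a2 (-1.17, edgeR adjusted p = 0.000428) and Clca3b (-0.56, edgeR adjusted p = 0.0181) were lower in germ-free mice, as Clca1 was. Clca3a2 was also lower in the 3 other comparisons of germ-free mice with SPF or antibiotics-treated mice, by -1.18, -0.90 and -0.80. Clca4a reached its highest level, 15.1 CPM, in SPF Milli-Q replicate 2, and its calls against SPF on Milli-Q water were lost without that library. Agr3 stayed between 4.85 and 16.7 CPM and Tff2 between 0.35 and 34.8 CPM, with no call for either. Tff1 had 0 counts in 17 libraries, Clca2 had 10 counts in all, and Fcgbpl1 never passed 0.204 CPM.

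The other mucins were membrane-bound or nearly unexpressed. Of the 11 with a row of counts, 5 passed the filter. The gel-forming mucins of airway and salivary glands, Muc5b and Muc19, had 0 counts in all 21 libraries, and the gastric mucin Muc5ac had 12 counts in all. Muc13, a membrane mucin of the enterocyte surface, stood at 480 to 922 CPM. It was lower on zinc water in germ-free mice (-0.45, edgeR adjusted p = 0.0229; -0.33 with adjusted p = 0.238 by library totals). Muc4 was lower in germ-free than in SPF mice on Milli-Q water (-1.35, edgeR adjusted p = 0.00074) and than in antibiotics-treated mice there (-1.13, edgeR adjusted p = 0.00227), under both scalings. In germ-free against SPF mice on Milli-Q water Muc13 (0.62, edgeR adjusted p = 0.00163) and Muc3a (1.19, edgeR adjusted p = 0.0479) were higher under TMM scaling. By library totals they were at -0.35 and 0.20, neither called, and without SPF Milli-Q replicate 2 Muc3a had an edgeR adjusted p of 0.104. Muc13 was also higher in germ-free than in antibiotics-treated mice there (0.59, edgeR adjusted p = 0.00131), and lower by library totals (-0.45, edgeR adjusted p = 0.0154). Muc3a fell on zinc water after antibiotics (-1.90, edgeR adjusted p = 0.00262). Muc17 was lower after antibiotics than in SPF mice on zinc water (-1.69, edgeR adjusted p = 0.0344; adjusted p = 0.0824 by library totals), and higher in germ-free than in antibiotics-treated mice on that water (1.47, edgeR adjusted p = 0.0397; adjusted p = 0.143 by library totals). Muc4 was also lower in germ-free than in SPF mice on zinc water (-0.80, edgeR adjusted p = 0.0445).

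Of 20 enzymes of mucin O-glycosylation, which attach and extend the sugar chains of Muc2, 19 were tested. On zinc water after antibiotics 5 were higher and 1 lower, where 21.7% of all genes were called. The higher ones included C1galt1 (0.87, edgeR adjusted p = 0.0379), which makes the core 1 chain, its chaperone C1galt1c1 (0.70, edgeR adjusted p = 0.0189), and the initiating transferases Galnt5 (0.82, edgeR adjusted p = 0.0433) and Galnt3 (0.69, edgeR adjusted p = 0.0211). None of these 4 was called by library totals, where their values were 0.71, 0.52, 0.66 and 0.52. The 6 calls became 2 without antibiotics Milli-Q replicate 2 or antibiotics zinc replicate 1, and at most 5 without any other library. The sialyltransferase St6galnac2 was lower (-0.74, edgeR adjusted p = 0.00271), and it was lower on zinc water in germ-free mice too (-0.86, edgeR adjusted p = 0.00923; adjusted p = 0.0594 by library totals). There Galnt7 (1.26, edgeR adjusted p = 0.0129) and Galnt5 (1.24, edgeR adjusted p = 0.024) were higher under both scalings. In germ-free against SPF on Milli-Q water, where 24.2% of all genes were called, 6 were called, but 4 without SPF Milli-Q replicate 2, of which 1 was shared, Galnt7.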

How the data were processed

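Paneth cells were sorted by FACS from mouse small intestine, and RNA from an Aurum kit was made into TruSeq stranded mRNA libraries. The authors deposited 1 table of raw counts per Ensembl gene for 21 libraries, without normalisation. Their processing notes name FastQC 0.12.0, STAR 2.7.0a, DESeq2 and build mm39. Which tool counted reads, whether by strand, and how reads with several matches were treated are not given in the sources used here. Symbols came from GENCODE M39 (54749 of 55414 identifiers matched). 0 columns were left unmatched. Fold changes and quasi-likelihood tests came from edgeR 4.0.16, with limma 3.58.1 under R 4.3.3. The fit held all 21 libraries and 6 group coefficients, used TMM scaling, and covered the 13070 genes that passed filterByExpr. P-values were adjusted by Benjamini-Hochberg over all genes, with a threshold of 0.05, and SE is the standard error of the log2 fold change. The log-CPM used a prior count of 2. TPM used the longest transcript. The fit was tested on simulated data.

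Groups came from the labels, and the mice are described as biological replicates. The 6 members and all lists were chosen with earlier results of these data known. Genes of other lists were named from among the 4 with the largest change past the threshold in a comparison and with a mean of at least 5 CPM. Not every gene that met this was named. Paralogs were named whatever their values. Other genes, such as Retnlb and the remaining goblet cell markers in SPF Milli-Q replicate 2, and the genes at 0, were named after their values were seen. Genes most like each member were the 3 with the highest Pearson's r among those with a mean of at least 5 CPM. A gene this rule named is not reported. As alternatives the fits were repeated with library totals, DESeq2-type size factors, TMM without the Defa genes, no filter, 10 counts in 10 libraries, DESeq2 1.42.0, limma-voom with quality weights, only the groups compared, a replicate block, and leaving out each library. A block by the number in the sample descriptions was added after seeing the data. Depth was 9888174 to 16896714 counts, so that Clca1, the lowest member, had 50 to 2162 counts in a library. Plots used matplotlib 3.10.9 in Python 3.11.15.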

Additional observations from a re-analysis of the deposited data

Results flagged for a closer look

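Zg16 in the antibiotics-treated mice on zinc water had 1 library, replicate 1, far from the other 3. It stood at 692.2 CPM, and the others at 180, 183.6 and 172.1 CPM. On log2 CPM the gap was 0.953 of the whole range of the group, above Dixon's critical value for 4 libraries. Among the 18 cases of a member in a group of 4 libraries no other was so marked, and chance marks about 1 in 20 such groups. The same library had the highest Clca1 of all 21 libraries, at 133.8 CPM.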

How the results depend on the processing

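Fcgbp on zinc water in SPF mice ran from -1.30 to -1.10 when each library was left out, and library totals gave -1.40. After antibiotics on Milli-Q water it ran from 1.32 to 1.54. Its values in comparisons with germ-free mice moved by library totals, as given above. Of the 42 tested values of members, 42 kept their side of the threshold with DESeq2-type size factors and with TMM without the Defa genes. With the stricter filter 42 did too. With DESeq2 41 did, with library totals 36, with limma-voom 33, with only the groups compared 33 and without a filter 29. A value called in neither fit was counted as kept whatever its sign. Some of these turned by library totals, such as Muc2 in germ-free against antibiotics on Milli-Q water, from 0.67 to -0.37. Only 1 value reversed and passed the threshold, Tff3 in germ-free against antibiotics on Milli-Q water, at -0.57 by library totals. Leaving out each library gave counts of called members of 0 to 0 for zinc water after antibiotics, 0 to 1 for zinc water in germ-free mice, 1 to 3 for antibiotics against SPF on zinc water, and 2 to 3 and 0 to 1 for germ-free against SPF on Milli-Q and zinc water. They were 2 to 2 and 1 to 4 for germ-free against antibiotics on Milli-Q and zinc water, and 0 to 0 for the difference of zinc effects. The count of 1 for antibiotics against SPF came without SPF zinc replicate 3, that of 0 for germ-free against SPF without SPF zinc replicate 2, and that of 1 for zinc water in germ-free mice without germ-free zinc replicate 4. Zinc water after antibiotics called 2 members without a filter, 1 with limma-voom and 2 with only the groups compared. Zinc water in germ-free mice called 4 without a filter, 1 with DESeq2 and 3 with limma-voom. Germ-free against SPF on zinc water called 3 without a filter and 0 with only the groups compared. Germ-free against antibiotics on Milli-Q water called 4 with library totals, without a filter and with limma-voom, and 5 with only the groups compared. The difference of zinc effects called 1 without a filter. The cause of these changes was not tested. Without a filter the prior degrees of freedom were infinite over 24548 genes, against 8.52 over 13070.

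The replicate numbers did not pair the libraries, since in no comparison did every pair of equal number correlate above 0.1. With a replicate block 2 members were called on zinc water in germ-free mice, Tff3 (-0.60, edgeR adjusted p = 0.0325) and Clca1 (1.28, edgeR adjusted p = 0.0227), and with the replicate block by description number 1, Tff3 (edgeR adjusted p = 0.044). The latter block took Zg16 in germ-free against antibiotics on zinc water to an adjusted p of 0.0556.

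Leaving out each library gave mucus shares of counts of 0.388% to 0.675% and 0.282% to 0.325% in SPF mice, 0.659% to 0.751% and 0.632% to 0.713% after antibiotics, and 0.336% to 0.380% and 0.272% to 0.314% in germ-free mice, on Milli-Q and zinc water. Over counts without the Defa genes the share was 0.472% in SPF zinc, 0.998% and 0.931% in the antibiotics groups and 0.644% and 0.505% in the germ-free groups. Over the TMM-scaled library size it was 0.531% after antibiotics on Milli-Q water, and 0.560% and 0.421% in the germ-free groups.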

Other observations

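The genes whose log-CPM was most like that of each mucus gene over the 21 libraries, among 9353 genes with a mean of at least 5 CPM, differed between members. All these r values are descriptions over libraries that share groups and scaling. Those most like Muc2 were Mon1a (r = 0.909), Dpagt1 (0.869), which starts N-glycan synthesis, and Hgfac (0.867). With group means removed Dpagt1 (0.894) was again among its first 3, beside Slc17a9 (0.896) and R3hdm4 (0.882). For Agr2 the first 3 were Snap23 (0.898), a protein of vesicle fusion, Dnajc10 (0.895), a disulfide reductase of the endoplasmic reticulum, and Gorab (0.883), a Golgi protein. With group means removed they were Tgoln1 (0.964) and Golph3l (0.96), both Golgi proteins, and Tsc22d1 (0.962).

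Clca1 and Zg16 were each other's match both over all libraries (0.86) and with group means removed (0.872). Each also had Scin, an actin-severing protein (0.92 with Clca1, 0.817 with Zg16), and Serpina1b (0.86 with both) among its first 3. Pla2g5 (0.795) and Scin (0.79) were among the first 3 of Fcgbp. With group means removed the first 3 of Fcgbp were Ctr9 (0.785), Mxi1 (0.779) and Nedd1 (0.763). Those of Tff3 were Anxa4 (0.855), Rpl18 (0.847) and Ngdn (0.841), and with group means removed Tm4sf4 (0.906), Cyp2c68 (0.865) and Triap1 (0.845).

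Of 10 transcription factors of the secretory lineage, edgeR called 1 on zinc water after antibiotics, Sox9 (-0.40, adjusted p = 0.0334; adjusted p = 0.0501 by library totals), and 0 on zinc water in germ-free mice. In germ-free against SPF on Milli-Q water Foxa3 (1.11, edgeR adjusted p = 0.000189) and Gfi1 (0.63, edgeR adjusted p = 0.0371) were higher and Klf4 (-0.67, edgeR adjusted p = 0.0153) was lower. By library totals Foxa3 was at 0.16 and Gfi1 at -0.34, neither called, and Klf4 at -1.64. Without SPF Milli-Q replicate 2, Klf4 was not called (-0.55, edgeR adjusted p = 0.0658), and Spdef (0.92, edgeR adjusted p = 0.00337) and Creb3l1 (0.88, edgeR adjusted p = 0.00483) were called higher beside Foxa3 and Gfi1.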
